A study of Mus musculus with 6 samples.

Results

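The genes described here are 44 named genes of the actin and tubulin cytoskeleton, grouped by role: actins and the proteins that bind their monomers, the Arp2/3 complex, capping and severing proteins, the WASP and WAVE activators, ERM proteins, podosome and contractile genes, and tubulins. They were taken by gene symbol from a deposited table of 25751 genes. All 44 were found, and all 44 were among the 14626 genes with enough counts to be tested. The libraries came from primary wild-type (WT) mouse myeloid cells at 24 h, 3 of them control and 3 treated with trimethylamine N-oxide (TMAO), a metabolite that the liver makes from trimethylamine released by gut bacteria. The sample descriptions call the treated libraries T-BMDM and the untreated ones Control. The labels do not say whether the cells of both groups were obtained in the same way, so a difference given here as with TMAO is one between the libraries so labelled. They give no dose and do not say whether libraries of a group came from separate animals or cultures, so the tests see only library-to-library variation, which can be technical.

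Actin exists as free monomers and as filaments. Profilin, thymosins, cofilin and the cyclase-associated proteins hold, recycle or release the monomers, and the Arp2/3 complex, switched on by WASP and WAVE, starts branches on existing filaments. In macrophages and neutrophils these branched networks drive crawling, engulfment and podosomes, the small adhesive actin columns of macrophages. Microtubules are polymers of alpha and beta tubulin, each made from several genes whose coding sequences are closely alike.

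The libraries held 37759007 to 41735109 counts. Levels are in CPM, counts divided by library size after TMM normalisation. As a check of the labelled cell type, summed macrophage markers were high in both groups (10100 to 10900 CPM of the library total in controls, 10900 to 11500 with TMAO), with 5 of 12 called higher and 5 lower. Neutrophil markers were called higher in 14 of 16 cases and lower in 1, with summed levels of 335 to 367 CPM in controls and 4520 to 5490 with TMAO. All 8 monocyte markers were called higher (222 to 274 CPM against 1060 to 1160), as were 14 of 15 proliferation genes (291 to 333 CPM against 672 to 763). Megakaryocyte and erythroid markers summed to 44.6 to 65.0 CPM in controls and 359 to 516 with TMAO, and stromal markers to 11.9 to 14.8 and 20.6 to 23.4 CPM. Dendritic cell markers summed to 62.5 to 65.8 and 73.7 to 82.4 CPM, with 5 of 7 tested called higher and 1 lower. Of 6 tested B cell markers 5 were called higher (2.59 to 3.57 CPM against 11.8 to 15.4), and Pax5 and Ebf1 had no control counts. Of 7 T and NK cell markers 1 had enough counts to be tested and was called higher (0.209 to 0.52 CPM against 2.03 to 2.88 for the sum). The part of these other cell types in the results below was not tested. In bulk RNA, fewer cells of a type and less RNA per cell cannot be told apart.

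Of the 44 cytoskeleton genes, 14 rose and 17 fell with TMAO and 13 did not pass. The threshold was 0.05 for the Benjamini-Hochberg adjusted p of edgeR's quasi-likelihood test over all genes tested. All 4 WASP and WAVE genes fell, both actins and 4 of 8 tubulin and stathmin genes rose, and the Arp2/3 complex split. The share called, 70.5%, lies near the 65.7% of all genes tested that were called. For the 31.8% called higher the share of all genes is 33.0%, and for the 38.6% called lower it is 32.7%. The groups did not overlap in CPM for 32 of the 44 genes (72.7%, against 71.0% of all genes tested). The median log2 fold change of the 44 was 0.0567, against 0.00501 for all genes tested. At least 2-fold changes were found in 7 of the 44 (15.9%, against 30.4% of all genes tested), 3 higher and 4 lower (15.7% and 14.7% of all genes). The median control level was 432 CPM for the 44 and 14.8 CPM for all genes tested, so these shares compare genes of unlike abundance. The 44 genes together took 3.08 to 3.37% of the counts of the control libraries and 3.23 to 3.49% of those of the TMAO libraries, so the total overlapped between groups.

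**Figure D1:**
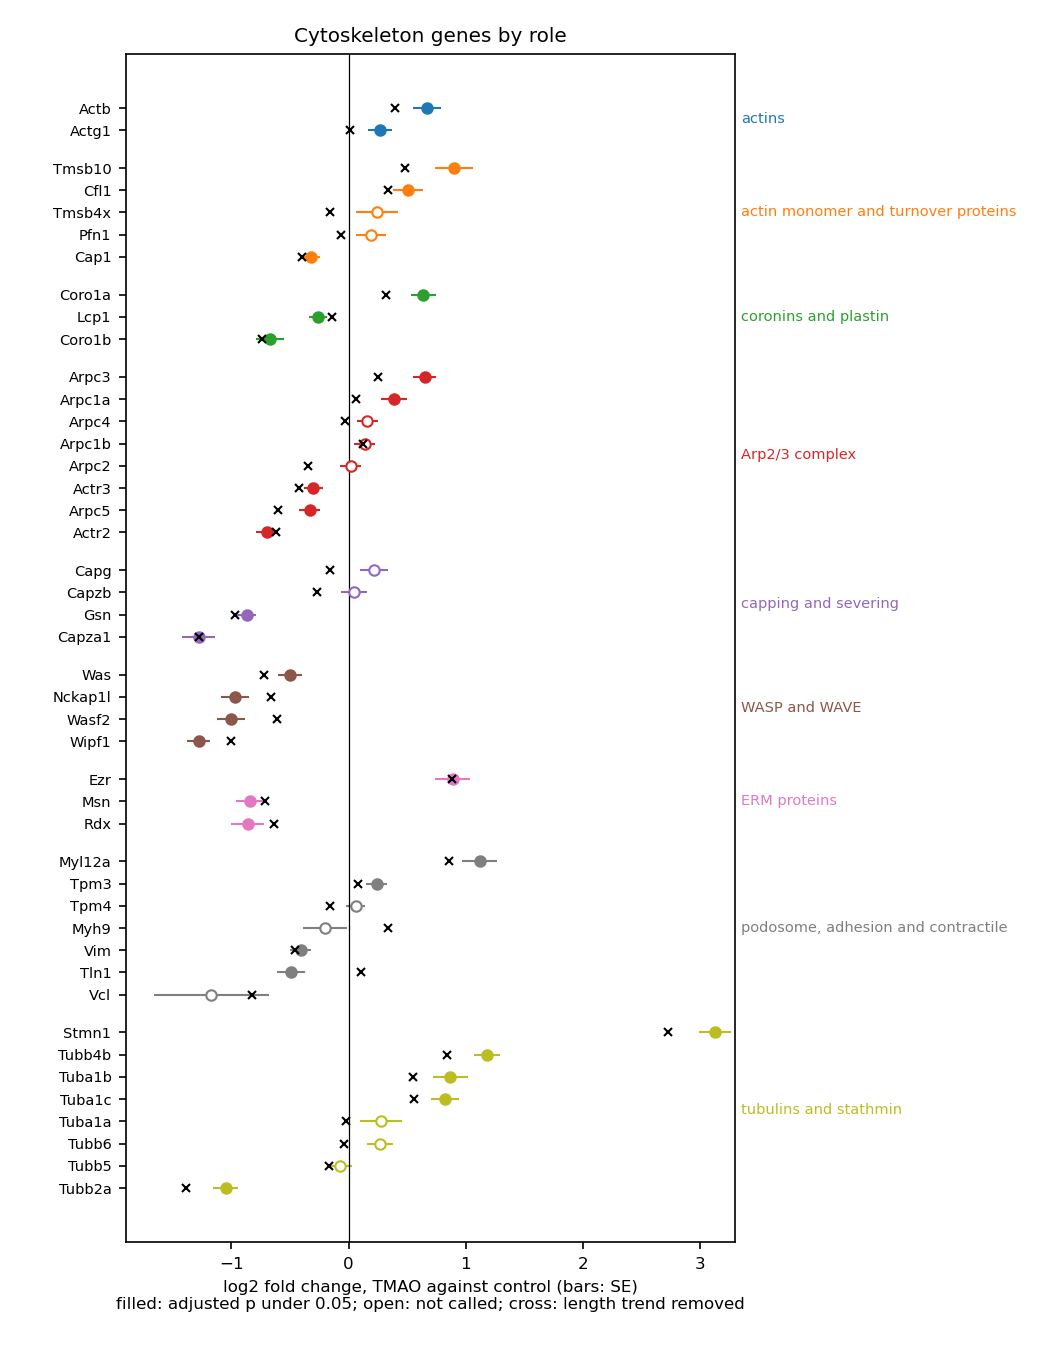
Log2 fold change of TMAO against control (x axis) for each of the 44 genes (y axis), grouped and coloured by role; bars are SE, filled points passed an adjusted p of 0.05, open points did not, and crosses are the values with the length trend removed. All 4 WASP and WAVE genes lie left of 0 and Stmn1 lies farthest right, at 3.13.

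Both cytoplasmic actins were higher with TMAO. Actb, the gene of beta-actin and a common reference transcript, stood at 5060, 5531 and 4400.5 CPM in controls and at 7122, 8914 and 7767 CPM with TMAO. Every TMAO library was above every control library, with TMAO 2 the highest. The log2 fold change was 0.67 (SE 0.12, edgeR adjusted p = 0.000519), a 1.59-fold rise. Actg1, the gene of gamma-actin, stood at 1566, 1613 and 1293 CPM in controls and 1863, 1763 and 1769 with TMAO. Its groups also did not overlap, but the rise was 1.21-fold (log2 fold change 0.27, SE 0.10, edgeR adjusted p = 0.0345), and the call was lost with the trend on transcript length removed (log2 fold change 0.01, edgeR adjusted p = 0.947), with the trend on GC content removed (0.198), and when any of control 1, control 3, TMAO 1 or TMAO 3 was left out (0.0719, 0.139, 0.0678 and 0.0802). As a share of both actins per kilobase of transcript, Actb went from 77.3% ± 0.571 in controls to 81.6% ± 2.09 with TMAO (mean ± SD, n = 3). The highest control share was 77.7% and the lowest TMAO share 79.5%.

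A CArG box, the binding sequence of the serum response factor SRF, was found in 3 of the RefSeq promoter windows (build GRCm38.p6, 250 bases before to 50 after the start of transcription). SRF and its actin-sensing cofactors are the textbook regulators of actin genes, so the boxes are shown with 20 bases on each side where the window allows, box in capitals.
Actg1, chr11:120348556-120348605, minus strand: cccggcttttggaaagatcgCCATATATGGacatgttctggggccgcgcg
Vcl, chr14:20929151-20929200, plus strand: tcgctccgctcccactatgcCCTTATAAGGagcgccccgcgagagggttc
Arpc4, chr6:113377863-113377892, plus strand: CCTAATTTGGtgcccaacctgaggtcgggc
A window was found for 39 of the 44 genes, and 3 of them (7.69%) held a box on either strand, against 1.81% of 27025 genes with a window. Actb, Coro1b, Nckap1l, Tubb6 and Stmn1 had no window, so their promoters were not searched. Of the carriers Actg1 was called higher, and Arpc4 and Vcl did not pass the test. Among SRF and its cofactors, 2 of 6 rose and 3 fell, or 2 and 1 once the trend on transcript length was removed. Of all genes tested 33.0% rose and 32.7% fell, or 32.0% and 29.8% with that trend removed. So few genes cannot be told apart from these shares, and control of the actin genes by SRF was not tested. Of the 6, only the called gene with the lowest p in each direction is given, and neither is an actin-sensing cofactor. The ternary complex factor Elk3 rose from 64.5 ± 2.42 to 94.1 ± 3.21 CPM (edgeR adjusted p = 0.000193). Elk1 fell from 23.9 ± 2.57 to 10.98 ± 0.884 CPM (edgeR adjusted p = 2.02e-05).

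Among the 5 genes of monomer binding and turnover, 2 rose and 1 fell, where 33.0% of all genes tested rose and 32.7% fell. Counts as small as these cannot be told apart from such shares. Tmsb10, a small protein that sequesters actin monomers, stood at 389, 471 and 385 CPM in controls and 610, 979 and 728 with TMAO. The groups did not overlap and TMAO 2 was the highest (log2 fold change 0.90, SE 0.16, edgeR adjusted p = 0.000604). Its abundant relative Tmsb4x stood at 2979, 3662 and 3151 CPM in controls and 2974, 5106 and 3508 with TMAO. Here TMAO 1 lay below all controls and TMAO 2 above them, and the gene did not pass (log2 fold change 0.24, edgeR adjusted p = 0.244). Tmsb10 held 13.7% ± 0.414 of the thymosin signal per kilobase in controls and 20.1% ± 0.68 with TMAO. Cfl1, the filament-severing cofilin, rose from 841 ± 91.04 to 1195 ± 194 CPM (a log2 fold change of 0.51, SE 0.13, edgeR adjusted p = 0.00511). Pfn1, profilin, was at 1151 ± 119.6 and 1312 ± 244 CPM and did not pass (edgeR adjusted p = 0.235). Cap1, which recycles monomers from cofilin, fell from 779 ± 24.9 to 624 ± 15.4 CPM (a log2 fold change of -0.32, SE 0.08, edgeR adjusted p = 0.00444).

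The coronins, which bind filaments and the Arp2/3 complex, moved in opposite directions. Coro1a, the form typical of blood cells, stood at 277, 308 and 239 CPM in controls and 397, 442 and 441 with TMAO. Coro1b, the more widely expressed form, stood at 245, 257 and 226 CPM in controls and 168, 123 and 166 with TMAO. Neither pair of groups overlapped, and the log2 fold changes were 0.64 (SE 0.11) and -0.67 (SE 0.12), with edgeR adjusted p of 0.000376 and 0.000645. The leukocyte filament bundler Lcp1, or L-plastin, fell from 1718 ± 39.7 to 1436 ± 84.1 CPM (a log2 fold change of -0.26, edgeR adjusted p = 0.0194). The Lcp1 call was lost with the length trend removed (edgeR adjusted p = 0.179) and when control 1, control 2 or TMAO 3 was left out (0.0621, 0.0607 and 0.0631). With the trend on median transcript length removed instead, Lcp1 was called lower (-0.43, edgeR adjusted p = 0.000999).

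Of 8 genes for subunits of the Arp2/3 complex, which work as 1 assembly, 2 rose, 3 fell and 3 did not pass. Among all genes tested 33.0% rose and 32.7% fell, and 8 genes are too few to be told apart from these shares. Actr2, the Arp2 subunit that with Arp3 forms the seed of the new filament, stood at 659.8, 635 and 666 CPM in controls and 439.7, 393 and 373 with TMAO. This was the largest drop among the 8 (log2 fold change -0.70, SE 0.09, edgeR adjusted p = 5.81e-05), and the groups were far apart. Actr3, the Arp3 subunit, fell from 815 ± 19.6 to 663 ± 18.2 CPM (-0.30, SE 0.08) and Arpc5 from 929.9 ± 11.96 to 740.4 ± 59.4 CPM (-0.33, SE 0.09). Arpc3, a small subunit, stood at 429, 499 and 440 CPM in controls and 631, 761 and 759 with TMAO. All TMAO libraries lay above all controls (log2 fold change 0.65, SE 0.10, edgeR adjusted p = 0.000271). Arpc1a rose from 43.5 ± 3.71 to 56.8 ± 6.97 CPM (0.39, edgeR adjusted p = 0.0115). Its paralog Arpc1b, which dominates in blood cells and held 91.0% ± 0.264 of the Arpc1 signal per kilobase in controls and 89.5% ± 1.41 with TMAO, did not pass, nor did Arpc2 and Arpc4 (edgeR adjusted p = 0.216, 0.872 and 0.148). Once the length trend was removed, none of the 8 was called higher and 4 were called lower: Arpc3 and Arpc1a did not pass (edgeR adjusted p = 0.0588 and 0.658), and Arpc2 turned to a called drop of -0.35 (0.00637). With the median transcript length in that correction Arpc3 was called higher (0.48, edgeR adjusted p = 0.00195) and Arpc2 was not called (0.547), and Arpc3 was also called higher with the trend removed library by library (0.24, edgeR adjusted p = 0.00963). Without the trend on GC content Actr3 was not called (-0.14, edgeR adjusted p = 0.15), and Arpc1a also lost its call without control 1 (0.051) or control 3 (0.0528).

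All 4 genes of the WASP and WAVE activators fell, where 32.7% of all genes tested did so. Wipf1, which binds and stabilises WASP, stood at 256, 244 and 279.7 CPM in controls and 119, 101 and 101 with TMAO. All TMAO values lay far below all control values (a log2 fold change of -1.28, SE 0.10, edgeR adjusted p = 1.85e-06). Its partner Was, the gene of the Wiskott-Aldrich syndrome protein, stood at 156, 154 and 156 CPM in controls and 120, 95.02 and 115 with TMAO (-0.50, SE 0.10, edgeR adjusted p = 0.0013). Wasf2, the WAVE2 subunit, fell from 237 ± 18.4 to 118 ± 19.3 CPM (-1.0, SE 0.12, edgeR adjusted p = 4.42e-05). Nckap1l, the blood-cell scaffold of the WAVE complex, stood at 1004, 912 and 1067 CPM in controls and 578, 429 and 516 with TMAO (-0.97, SE 0.12, edgeR adjusted p = 4.28e-05). The 4 calls held under all 21 alternatives other than the test against a fold of 1.5, and their median log2 fold change was -0.98, or -0.69 with the length trend removed. In the same libraries summed neutrophil markers were higher, as given above, and a link to these falls was not tested.

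Further WASP, WAVE and Arp2/3 genes, from a list chosen with earlier results of these data known, fell more often than they rose. Of 15 tested from a list of 18, 10 fell and 3 rose (66.7% and 20%, against 32.7% and 33.0% of all genes tested; median log2 fold change -0.76, or -0.42 with the length trend removed, when 9 were called lower and 3 higher). Abi3, a WAVE complex adaptor, fell from 12.5 ± 1.53 to 3.11 ± 0.214 CPM (edgeR adjusted p = 1.45e-06). Brk1, the smallest WAVE subunit, rose from 106 ± 12.03 to 221 ± 44.4 CPM (edgeR adjusted p = 9.56e-05). Brk1 thus moved against Wasf2, Nckap1l and Abi3.

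Of the 4 capping and severing genes 2 fell and none rose, where 32.7% of all genes tested fell and 33.0% rose. Capza1, an alpha subunit of the protein that caps the growing filament end, stood at 178, 158 and 172 CPM in controls and 85.4, 56.3 and 68.05 with TMAO. The TMAO values were all under 90 CPM (a log2 fold change of -1.28, SE 0.14, edgeR adjusted p = 1.97e-05). Capzb, the beta subunit that pairs with it, was at 449 ± 43.5 and 466 ± 49.9 CPM and did not pass (0.05, edgeR adjusted p = 0.673), although it was called lower with the length trend removed (-0.27, edgeR adjusted p = 0.0489) but not with the median transcript length (-0.11, edgeR adjusted p = 0.376). Gsn, the calcium-activated severing protein gelsolin, stood at 566, 588 and 517 CPM in controls and 299.8, 299.6 and 317 with TMAO. Its TMAO values were closely grouped (log2 fold change -0.87, SE 0.08, edgeR adjusted p = 9.74e-06). Capg, the macrophage capping protein, was at 939 ± 106 and 1096 ± 162 CPM and did not pass (edgeR adjusted p = 0.138).

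The ERM proteins, which tie filaments to the plasma membrane, moved in opposite directions. Msn, moesin, stood at 1285, 1196 and 1362 CPM in controls and 840, 606 and 706 with TMAO. Rdx, radixin, stood at 114, 108 and 118 CPM in controls and 76.9, 50.8 and 58.8 with TMAO. Both fell with no overlap, by 0.84 (SE 0.12) and 0.86 (SE 0.14) on the log2 scale, with edgeR adjusted p of 0.00014 and 0.000284. Ezr, ezrin, the form best known from epithelia, stood at 70.1, 71.4 and 73.5 CPM in controls and 156, 98.9 and 144 with TMAO. It rose 1.86-fold, with TMAO 2 the lowest treated library (log2 fold change 0.89, SE 0.15, edgeR adjusted p = 0.000369). Ezrin thereby held 17.2% ± 1.57 of the ERM signal per kilobase with TMAO against 5.94% ± 0.306 in controls, and moesin 77.0% ± 1.5 against 87.3% ± 0.396. All 3 calls held under the 21 alternatives.

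Podosome, adhesion and contractile genes gave 2 rises and 2 falls among 7, where 33.0% of all genes tested rose and 32.7% fell. Vim, the intermediate filament protein vimentin, fell from 3758 ± 342 to 2826 ± 125 CPM (a log2 fold change of -0.41, SE 0.09, edgeR adjusted p = 0.00303). Tln1, talin, which links integrins to actin and has the longest transcript of the 44 (8393 bases), stood at 740, 678 and 739 CPM in controls and 590, 424 and 518 with TMAO (-0.49, SE 0.12, edgeR adjusted p = 0.0038). Removal of the length trend turned its sign (0.11, edgeR adjusted p = 0.417), but with the median in place of the longest transcript length Tln1 was called lower (-0.65, edgeR adjusted p = 0.000738). Vcl, the talin-binding protein vinculin, stood at 21.0, 18.99 and 24.9 CPM in controls and 18.8, 2.59 and 7.3 with TMAO. The treated libraries scattered widely, with TMAO 1 just under the lowest control, and the gene did not pass (-1.17, SE 0.49, edgeR adjusted p = 0.0569), whereas without TMAO 1 it was called lower (-2.12, edgeR adjusted p = 5.13e-05). Vcl was also called lower by limma-voom (adjusted p = 0.0132), with newer quasi-likelihood moderation (0.0424), with no count filter (1.98e-14) and with the replicate block (0.000107), but not by DESeq2 (adjusted p = 0.162). Part of the Vcl transcript, 39.2% of its 50-base words, also lies in transcripts of its neighbour Ap3m1, which had 1803 to 4445 counts, so Vcl counts are uncertain. Myh9, the heavy chain of non-muscle myosin, stood at 837, 742 and 839 CPM in controls and at 926, 481 and 693 with TMAO. It showed the same order of treated libraries as Vcl and did not pass (edgeR adjusted p = 0.366), but was called lower without TMAO 1 (-0.46, edgeR adjusted p = 0.0107).

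Myl12a, a regulatory light chain of non-muscle myosin, stood at 52.3, 57.1 and 47.7 CPM in controls and 90.3, 140.4 and 111 with TMAO. It was the strongest riser of the contractile group, with groups well apart (log2 fold change 1.12, SE 0.15, edgeR adjusted p = 7.95e-05). The tropomyosins coat filaments. Tpm3 rose from 500.2 ± 30.9 to 592 ± 27.9 CPM (0.24, edgeR adjusted p = 0.0283), and Tpm4 was at 297 ± 19.9 and 309 ± 6.21 CPM without passing (edgeR adjusted p = 0.545). Tpm3 lost its call with the length or GC trend removed (edgeR adjusted p = 0.457 and 0.0524), with no count filter (0.0789), and when any of control 1, control 3, TMAO 2 or TMAO 3 was left out (0.104, 0.114, 0.0544 and 0.0938). Of its 50-base words 62.4% also occur in the gene Tpm3-rs7, whose counts came to between 2.55 and 6.75% of those of Tpm3.

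Among the tubulins and stathmin, 4 of 8 genes rose and 1 fell, where 33.0% of all genes tested rose and 32.7% fell. Stmn1, stathmin, which sequesters tubulin dimers and is known from dividing cells, stood at 5.22, 5.0 and 4.94 CPM in controls and 36.3, 51.4 and 44.7 with TMAO. This 8.73-fold rise was the largest of the 44 genes (log2 fold change 3.13, SE 0.14, edgeR adjusted p = 5.93e-08). It came in the same libraries in which 14 of 15 proliferation genes were called higher (median log2 fold change 2.85), and a link was not tested. The next largest rise of a tubulin gene was that of Tubb4b, at 62.8, 76.5 and 62.02 CPM in controls and 146, 145 and 164 with TMAO. Its lowest treated value, 145 CPM, lay well above the highest control, 76.5 CPM (a log2 fold change of 1.18, SE 0.11, edgeR adjusted p = 5.63e-06). Tubb2a moved the other way, from 59.95, 68.1 and 55.9 CPM to 30.6, 26.4 and 31.8 CPM. All its treated values lay under 32 CPM (-1.05, SE 0.11, edgeR adjusted p = 1.61e-05). The longest transcripts of Tubb4b and Tubb2a are nearly equal, 1598 and 1610 bases, and their coding sequences are 83.7% identical. Tubb5, the most abundant beta tubulin here, was at 341 ± 36.9 and 325 ± 17.99 CPM, and Tubb6 at 66.8 ± 9.14 and 80.3 ± 5.76 CPM; neither passed (edgeR adjusted p = 0.541 and 0.0579). Tubb6 was near the threshold and was called higher under 8 of the 21 alternatives.

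Per kilobase, every TMAO library held more of its beta tubulin signal in Tubb4b, and less in Tubb5 and Tubb2a, than every control library. Tubb4b held 17.0% ± 0.822 in controls and 33.7% ± 0.642 with TMAO, Tubb2a 15.4% ± 0.25 and 6.52% ± 0.481, and Tubb5 52.2% ± 1.32 and 43.6% ± 1.73. Tubb6 overlapped between groups, at 15.4% ± 0.469 and 16.2% ± 1.06. The Tubb2a difference of -8.91 percentage points was -3.93 with the median in place of the longest transcript length, and the Tubb4b difference of 16.7 was then 11.3. Over 14 shares tested in 7 families, 11 did not overlap between groups. In an exact two-sided permutation test with 3 libraries against 3 the smallest possible p is 0.1, which those 11 shares reached (Benjamini-Hochberg adjusted p = 0.127), so the design could not bring any of them under 0.05.

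**Figure D2:**
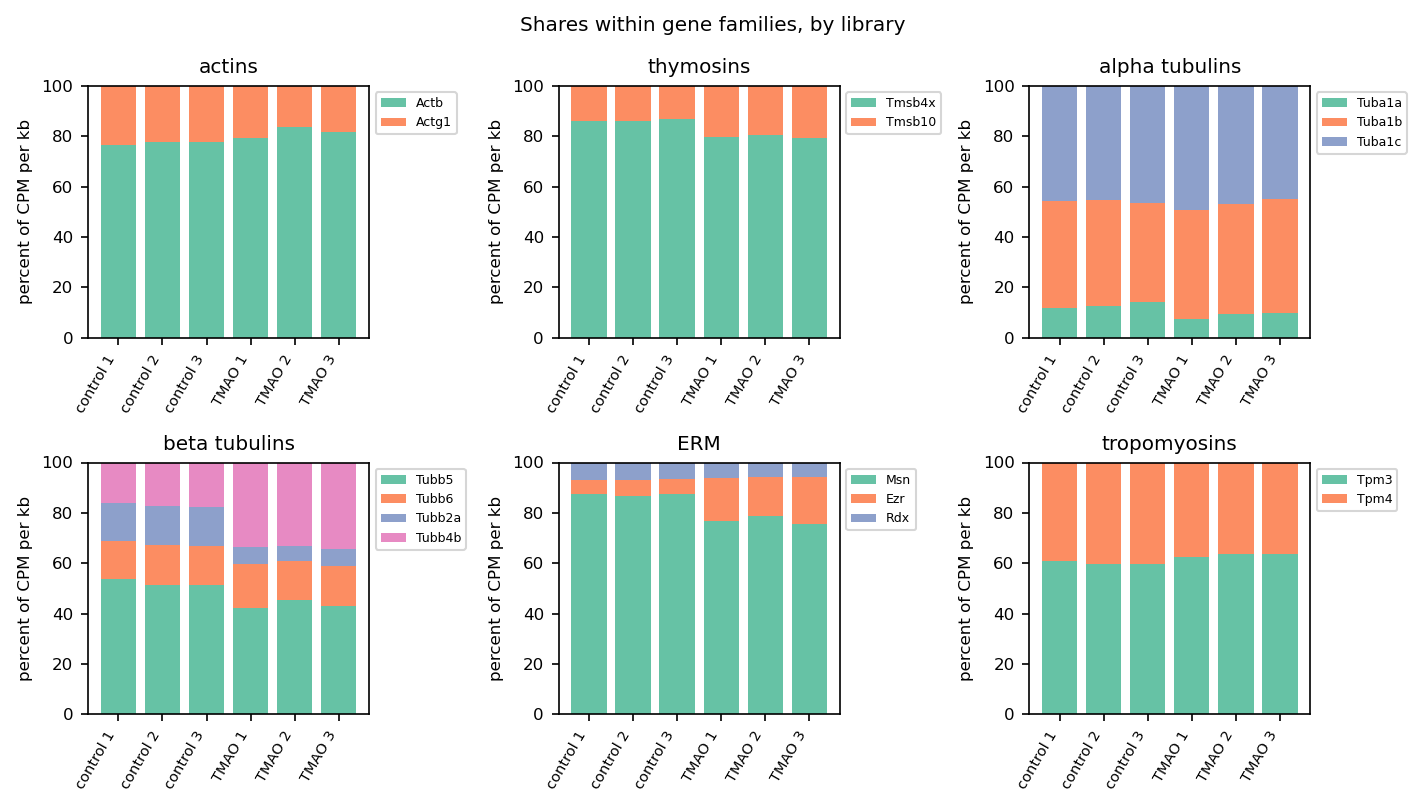
Percent of the summed CPM per kilobase held by each gene (y axis, stacked bars) in 6 families, for each of the 3 control and 3 TMAO libraries (x axis). Tubb4b takes 33.2 to 34.4% of the beta tubulin bar in TMAO libraries and 16.1 to 17.6% in controls, and Ezr 15.6 to 18.7% of the ERM bar against 5.74 to 6.29%.

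The alpha tubulins Tuba1b and Tuba1c rose together. Tuba1b stood at 80.3, 85.8 and 57.6 CPM in controls and 117, 138 and 153 with TMAO, and the groups did not overlap (log2 fold change 0.87, SE 0.15, edgeR adjusted p = 0.000525). Tuba1c rose from 93.5 ± 15.1 to 165 ± 11.7 CPM (0.82, SE 0.12, edgeR adjusted p = 0.000178). Tuba1a, the form prominent in neurons, was at 23.4, 27.1 and 21.3 CPM in controls and 20.4, 31.5 and 35.1 with TMAO. TMAO 1 was under every control, and the gene did not pass (0.28, edgeR adjusted p = 0.199) unless TMAO 1 was left out (0.47, edgeR adjusted p = 0.00424). These 3 coding sequences are 97.1 to 98.3% identical, and 61.0 to 83.1% of the 50-base words of their transcripts occur in other genes, so how reads were split among them is uncertain. Among other tubulin and tubulin-folding genes, 6 of 15 tested rose and 2 fell, where 33.0% of all genes tested rose and 32.7% fell. Once the length trend was removed 4 rose and 2 fell, where 32.0% and 29.8% of all genes did so. These counts are too small to be told apart from such shares. Tuba4a rose from 65.2 ± 8.36 to 153 ± 16.4 CPM (edgeR adjusted p = 8.37e-06), and Ttc5, which recognises newly made tubulin chains, fell from 32.3 ± 1.53 to 22.98 ± 1.48 CPM (0.00109).

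Sequence shared with other genes touched more of the 44. In 16 of them at least 20% of the 50-base words of the longest coding transcript occur in another gene, and in 14 none do. Capza1 shares 77.4%, 73.3% of its words with the pseudogene Gm3608, whose counts came to 8.41 to 14.1% of those of Capza1. For Actg1 (56.7%), Actr3 (49.8%), Tmsb10 (43.5%), Stmn1 (36.5%) and Tubb4b (55.5%) the copy that shares most held at most 2.54, 2.67, 1.68, 3.94 and 1.05% as many counts as the gene. For Myl12a (29.6%), Tubb2a (49.6%), Cfl1 (23.0%) and Arpc1b (42.2%) the gene that shares most held at most 6.1, 2.97, 1.94 and 11.8%. Coro1b shares 20.8% with Ptprcap, which is not among the genes counted. Wipf1, Wasf2, Nckap1l, Msn, Rdx, Gsn and Coro1a share no such word with any other annotated gene.

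Direction among the 44 went with transcript length. Of the 22 genes with the shorter transcripts (690 to 2128 bases), 11 rose and 3 fell (median log2 fold change 0.28). Of the 22 with the longer ones (2270 to 8393 bases), 3 rose and 14 fell (median -0.45). Among all genes binned by length, bins at 626.5 to 1796 bases had median log2 fold changes of 0.5358 to 0.3454. For bins at 2290 to 7896.5 bases the medians were 0.1415 to -0.6558. Lengths are of the longest transcript, coding or not. Coro1b thus counts as longer at 2814 bases, although its longest coding transcript has 1888. Across the 44 genes, which share the same 6 libraries, log2 fold change and log2 length had a Pearson correlation (r) of -0.63 and a Spearman correlation of -0.66; across 14598 genes with a length these were -0.24 and -0.33. With the length trend of all genes removed, 10 of the 44 were called higher and 17 lower (61.8% of all genes were called, 32.0% higher and 29.8% lower), r was -0.38, and the medians of the shorter and longer genes were 0.00 and -0.44. Among genes that went against the pattern in both settings were Ezr, at 3164 bases and higher, and Tubb2a, at 1610 bases and lower. The call and direction of 24 of the 31 called genes (10 higher, 14 lower) held in all 21 alternatives other than the test against a fold of 1.5. Those that did not were Actg1, Arpc1a, Arpc3, Tpm3, Lcp1, Actr3 and Tln1.

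**Figure D3:**
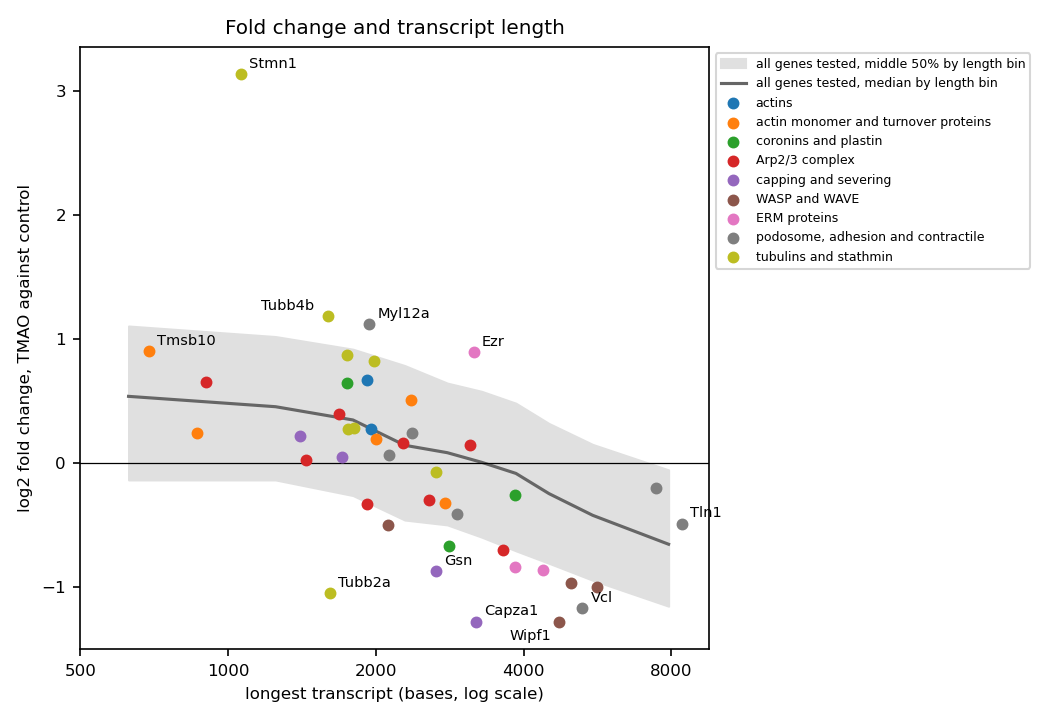
Log2 fold change of TMAO against control (y axis) by length of the longest transcript in bases (x axis, log scale); coloured points are the 44 genes by role, the grey line is the median of all genes tested in 10 bins of length and the band their middle 50%. Stmn1 and Tmsb10 lie high at the short end, most WASP, WAVE and ERM genes lie low among the long ones, and Ezr lies high at 3164 bases.

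The treated libraries differed from each other along the same line. Among the 22 shorter genes TMAO 2 was the highest treated library in 13 and TMAO 1 the lowest in 16, and among the 22 longer ones TMAO 1 was the highest in 16 and TMAO 2 the lowest in 16. The correlation with length of the log2 ratio to the control mean was -0.47 in TMAO 1, -0.70 in TMAO 2 and -0.62 in TMAO 3. The coefficient of variation between libraries was above 15% in 16 of the 44 genes with TMAO and in 2 in controls. Without TMAO 1, 17 genes were called higher and 19 lower. Pfn1, Tmsb4x, Capg and Tuba1a joined the first and Vcl and Myh9 the second, while Actg1 lost its call (edgeR adjusted p = 0.0678). Without TMAO 2 the numbers were 14 and 17, as in the main fit. Tpm3 then lost its call (edgeR adjusted p = 0.0544) and Tubb6 was called higher (0.0304).

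**Figure D4:**
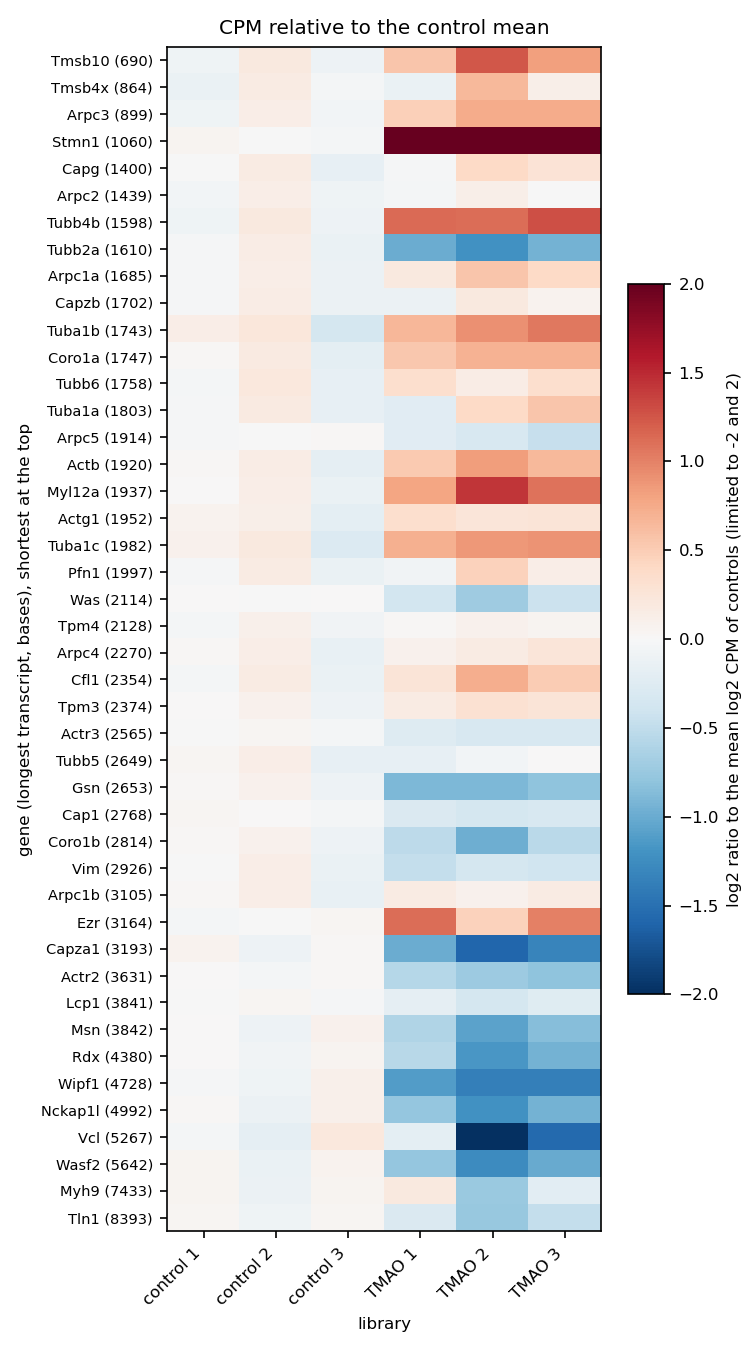
Log2 ratio of CPM to the control mean (colour) for the 44 genes (y axis, ordered from the shortest transcript at the top) in the 6 libraries (x axis). Red in TMAO columns is more frequent at the top and blue at the bottom, and TMAO 2 most often has the deepest colour at either end, with Vcl at 2.59 CPM.

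Per kilobase of the longest transcript, the most abundant of the 44 in controls were Tmsb4x (3780 CPM per kilobase), Actb (2600) and Vim (1280), and the least abundant were Vcl (4.10) and Stmn1 (4.77). With TMAO the first 3 were Tmsb4x (4470), Actb (4130) and Tmsb10 (1120), followed by Vim (966) and Actg1 (921). The longest transcript can be a non-coding one, and the order depends on this choice. For Pfn1 it has 1997 bases and the longest coding transcript 861, and for Vim 2926 and 2193. Actb alone took 0.45 to 0.548% of control counts and 0.726 to 0.858% of TMAO counts, and the other 43 genes took 2.63 to 2.82% and 2.50 to 2.63%.

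Cytoskeleton genes outside the 44 were read from 9 lists, which were chosen with earlier results of these data known. Of 134 tested, 28 rose and 65 fell (20.9% and 48.5%, against 33.0% and 32.7% of all genes tested). With the length trend removed 31 and 49 did so (23.1% and 36.6%, against 32.0% and 29.8%). Other actin turnover genes fell in 13 of 20 cases and rose in 1 (12 and 0 once the length trend was removed), with Coro2a, a coronin, going from 79.7 ± 5.06 to 29.95 ± 3.77 CPM (edgeR adjusted p = 2.12e-06) and Gmfg, an Arp2/3 debranching factor of blood cells, from 111 ± 14.6 to 155 ± 30.2 CPM (0.0145). Myosins and tropomyosins fell in 9 of 14 cases and rose in 1 (6 and 1 once the length trend was removed). Myo1e, a membrane-bound myosin of phagocytic cups, fell from 283 ± 14.02 to 101 ± 9.63 CPM (edgeR adjusted p = 5.58e-07), and Myl6, the essential light chain, rose from 564 ± 69.8 to 800.2 ± 140.2 CPM (0.00722). Adhesion and podosome adaptors fell in 9 of 18 cases and rose in 4. Fgr, a Src-family kinase, fell from 177 ± 5.09 to 82.6 ± 6.32 CPM (edgeR adjusted p = 2.43e-06), and Tes, a focal adhesion protein, rose from 36.4 ± 1.17 to 83.6 ± 2.88 CPM (1.05e-06).

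Crosslinkers and membrane linkers fell in 9 of 17 cases and rose in 3 (52.9% and 17.6%), but in 4 and 4 with the length trend removed. Of all genes tested 32.7% fell and 33.0% rose, or 29.8% and 32.0% with that trend removed. Marcksl1, a membrane-bound actin-binding protein, rose from 167 ± 24.03 to 897 ± 119.6 CPM (a log2 fold change of 2.42, edgeR adjusted p = 2.3e-07), and Pls3, a plastin typical of non-blood tissues, fell from 48.8 ± 3.79 to 14.5 ± 3.06 CPM (2.97e-06). Formins and Ena/VASP genes, which elongate unbranched filaments, rose in 4 and fell in 3 of 12 cases (6 and 2 once the length trend was removed), with Diaph3 at 1.79 ± 0.10 and 4.72 ± 0.806 CPM (edgeR adjusted p = 9.12e-05) and Evl at 128 ± 4.35 and 49.3 ± 4.47 CPM (8.38e-07). Microtubule-associated genes rose in 4 and fell in 7 of 17 cases, and the numbers changed places, 7 and 4, once the length trend was removed. Dctn2, a dynactin subunit, went from 144 ± 7.75 to 196 ± 10.8 CPM (edgeR adjusted p = 0.000932) and Mapre2, a plus-end binding protein, from 123 ± 4.12 to 46.8 ± 2.85 CPM (4.57e-07).

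**Figure D5:**
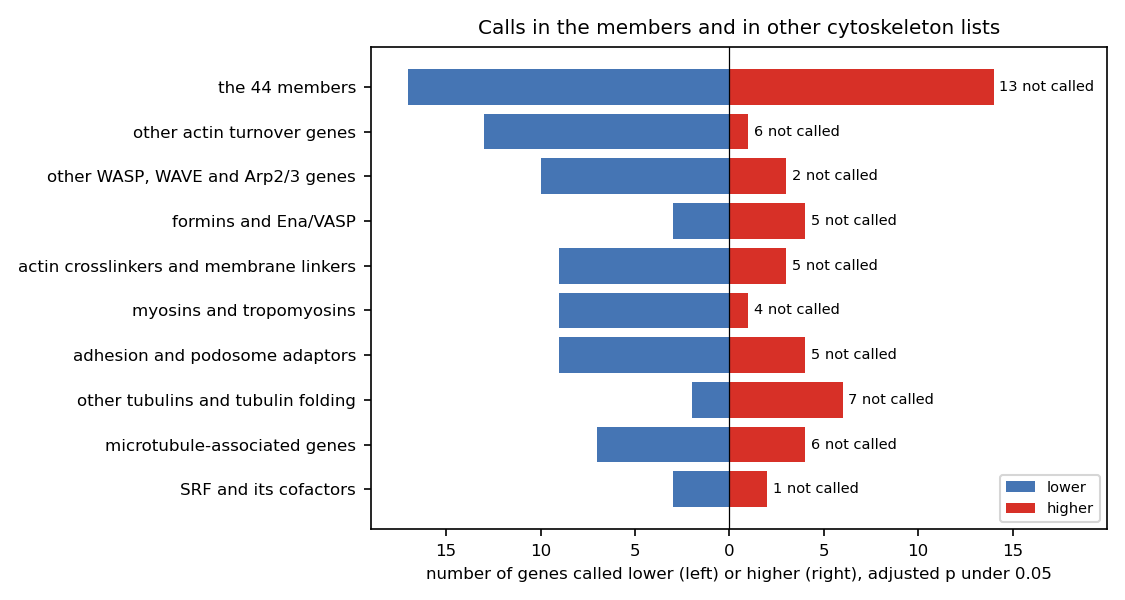
Number of genes called higher (right) and lower (left) at an adjusted p under 0.05 in the 44 members and in 9 further cytoskeleton lists (y axis), with the number not called beside each bar. Bars to the left are longer than those to the right in all but 2 lists, formins with Ena/VASP and other tubulins with tubulin folding.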

How the data were processed

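The authors deposited 1 table of raw gene counts, unnormalized whole numbers, for 3 control and 3 TMAO poly(A) libraries. The submitters' processing notes name build GRCm39, with the aligner, counting tool and strand setting not given in the sources used here, so counts of overlapping genes cannot be told apart. Symbols, lengths and shared 50-base words came from GENCODE M21 (GRCm38), matched by ID. The fit used edgeR 4.0.16 (R 4.3.3): filterByExpr with a minimum count of 10, TMM, and the quasi-likelihood F test without covariates, Benjamini-Hochberg over 14626 genes, threshold 0.05. The SE is the log2 fold change divided by the square root of F. Length and GC trends were removed by loess offsets. The fits were tested on simulated data in which far fewer genes changed than were called here. That test does not show how the fits behave with so many changes. Its pass mark was lowered after the first run missed it, with the fit unchanged. The members and lists were chosen with earlier results of these data known. All 44 members are named, and from each further list the called gene with the lowest p in each direction. One further pathway list is not reported here. Replicates of a group differed beyond sampling noise (chi-square per degree of freedom 14.2 to 72.6).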

Additional observations from a re-analysis of the deposited data

How the results depend on the processing

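Alternatives were DESeq2 1.42.0, limma-voom 3.58.1, other moderation, scalings and filters, a replicate block, removed length and GC trends, and each library left out; 2 of the length settings (library by library, and median transcript length) were chosen after seeing the data. Against a fold of 1.5, 5184 genes changed, with 7 of the 44 higher and 8 lower (18.0% and 17.5% of all genes). The median log2 fold change of the 44 became -0.147 with the length trend removed, -0.149 library by library and -0.0589 with the median transcript length. Leaving out 1 library gave 8629 to 9931 changed genes, 11 to 17 of the 44 higher, 16 to 19 lower and medians of 0.000436 to 0.124. Without the length trend 11 of the 44 turned sign, 8 of them called in neither fit; with the median transcript length 4 did, none called in either. Those with a call were Arpc2 (-0.355; -0.354 library by library), Capzb (-0.267; -0.268), Tln1 (0.115; 0.107) and, called only library by library, Tpm4 (-0.161). Without length scaling the share differences, in percentage points, were 5.49 for Tmsb10, -6.39 for Tubb2a, 13.3 for Tubb4b, -8.64 for Msn and 9.59 for Ezr; with median lengths they were -3.93 for Tubb2a, 11.3 for Tubb4b, -0.463 for Rdx and 2.07 for Tpm3. Of 924 values of single genes, 31 lost a call (7 genes), 23 gained one (10 genes) and 37 turned sign (12 genes), 7 of these with a call in either fit. Same-numbered libraries deviated together at r = 0.0321, 0.133 and -0.0672. These values show no pairing by number, but cannot exclude that such libraries shared an animal or culture. With the replicate block 9723 genes changed, 15 of the 44 higher (Tubb6 joining) and 18 lower (Vcl joining). Libraries of each group differed beyond sampling noise, so the number of libraries limits the precision more than depth does.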
